A study of Tachysurus vachellii with 12 samples.

Results

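The genes described here code for collagens, laminin chains, integrins and fibronectin, measured in liver mRNA of juvenile Tachysurus vachellii, a freshwater catfish that the study also calls Pelteobagrus vachelli. They were chosen by name: every gene name of the mRNA table that reads as a collagen chain, a laminin alpha, beta or gamma chain, an integrin alpha or beta subunit, or FN1, with the assembled component of most reads standing for each name. This gave 46 genes of 9918 distinct names, namely 21 collagens, 7 laminin chains, 17 integrins and FN1. The names COL4A3BP, ITGB1BP1 and ITGBL1 begin in the same way but belong to other proteins, and these 3 were set apart. Of the 46 genes, 43 passed the filter on low counts and were tested; Col14a1, ITGA3 and ITGA7, each at or below 0.362 CPM (a count scaled to library size, per 1000000) in every pool, were not.

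The hypoxia group was 3 pools (a, b and c) from fish held at 0.7 mg/L oxygen for 4 h after nitrogen had been bubbled through the water. The control group was 3 pools (a, b and c) from fish at 6.8 mg/L. Each pool combined 5 livers, so the spread between pools is not the spread between single fish. Both groups came from the same 3 aquaria and the controls were taken out before the oxygen was lowered, so low oxygen and the time that passed cannot be told apart. Whole liver was used, and in such bulk RNA fewer cells of a type and less RNA per cell cannot be told apart.

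Collagens are triple-helical proteins of the extracellular matrix. Fibrillar types build fibres, and type IV collagen forms, with the three-chain laminins, the sheet-like basement membrane. Integrins are cell-surface receptors made of 1 alpha and 1 beta subunit that attach cells to collagen, laminin and fibronectin. In the mammalian liver much of the collagen comes from stellate cells and fibroblasts, while hepatocytes secrete fibronectin into the blood. Collagen chains are hydroxylated, folded and exported by dedicated enzymes and chaperones, and the hydroxylases among them need oxygen as a substrate.

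The 6 libraries held 32652402 to 35852327 counts, so that 3 counts corresponded to 0.0828 to 0.0933 CPM on the TMM-scaled totals used for CPM. A total of 113 components carried 1 of the 46 names, with 18 names on a single component and up to 8 components on another. Hepatocyte markers (9 of 12 names found) summed to 38014 to 43287 CPM in hypoxia pools and 36041 to 49734 CPM in control pools, with none past the threshold. Fold changes are hypoxia over control on the log2 scale, with a standard error (SE) from edgeR's quasi-likelihood test. A gene passed when its p, adjusted over all 25415 components tested, was under 0.05.

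Under this test 1 of the 43 genes fell in hypoxia, Itga4, and none rose. Across all components tested 6.36% passed, with 4.56% higher and 1.8% lower in hypoxia, so the members' share of 2.33% was not above the background. At an unadjusted p under 0.05 there were 6 members (COL13A1, COL1A2, COL3A1, COL23A1, Itga4 and ITGB5), where 21.8% of all components reached that level. The COL13A1 component is counted by its name, though it is annotated as a cGMP-dependent protein kinase. The median log2 fold change was 0.11 over the 43 members, 25 of them positive, against 0.00 over all components tested. By family the medians were 0.19 in 20 collagens, 0.11 in 7 laminin chains and -0.06 in 15 integrins.

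**Figure D1:**
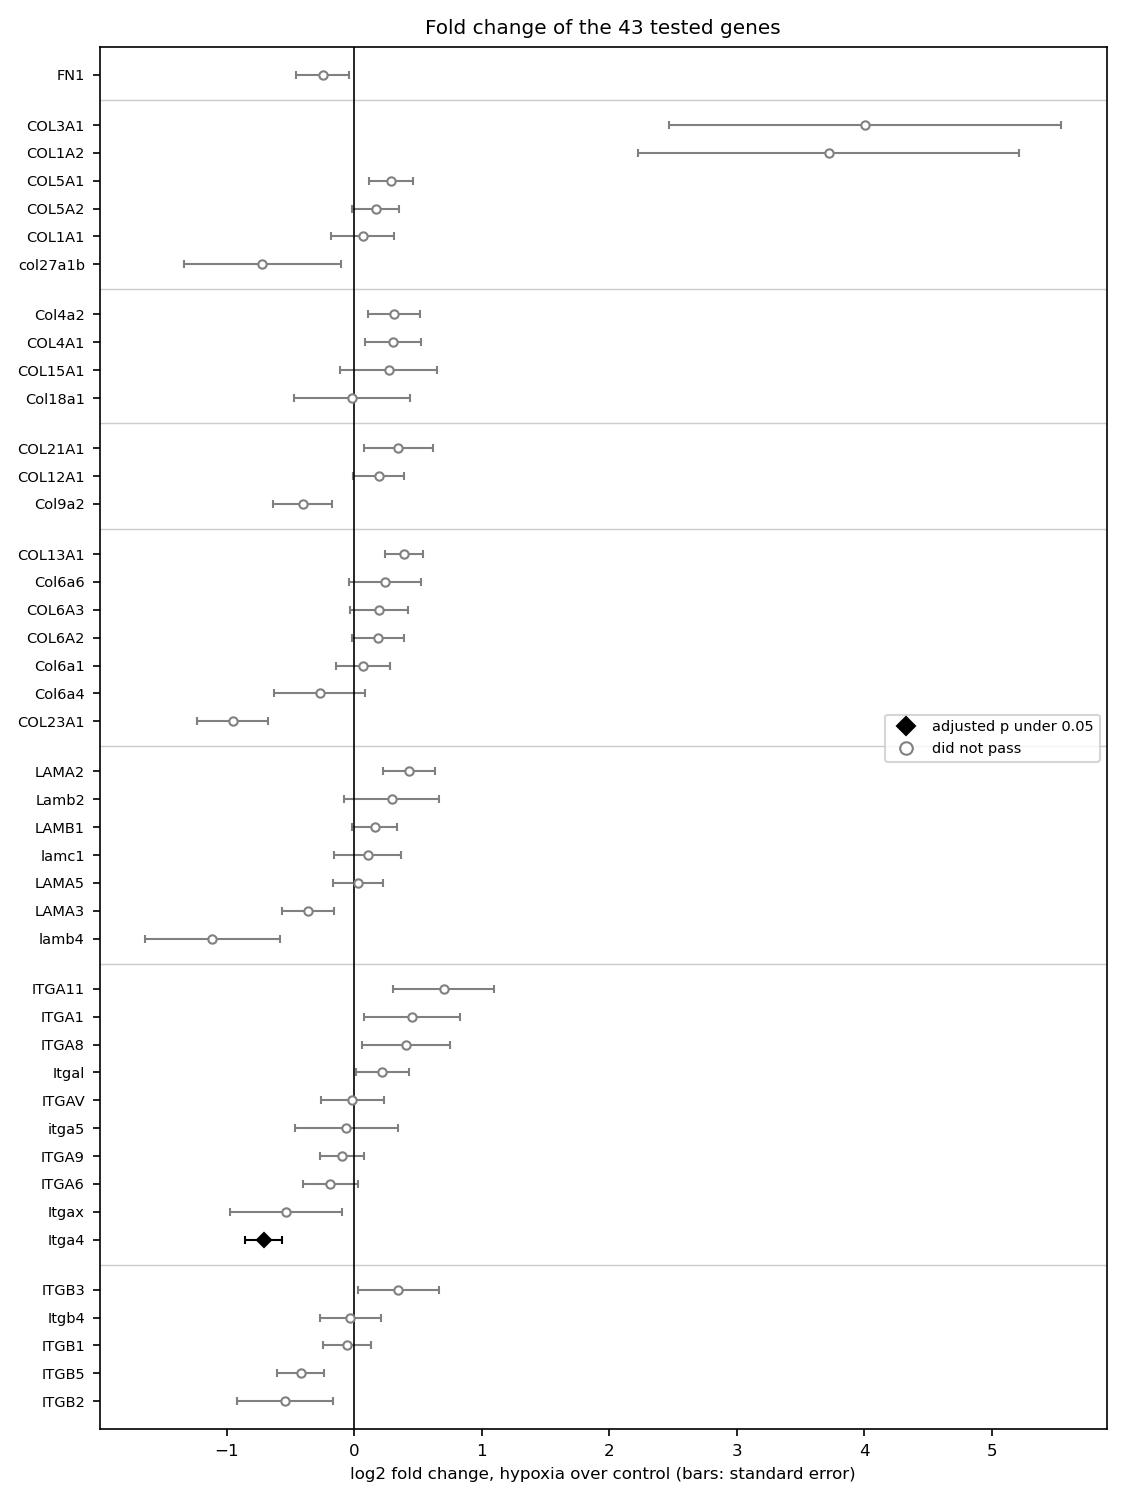
The log2 fold change (hypoxia over control) of the 43 tested genes by class, with bars for the standard error. Itga4 (black diamond) was the 1 gene with an adjusted p under 0.05, and COL3A1 and COL1A2 had the highest estimates, 4.01 and 3.72, with standard errors of 1.54 and 1.49.

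The hypoxia and control pools did not overlap in 6 of the 43 genes. COL13A1, ITGA11 and LAMA2 were higher in all 3 hypoxia pools than in any control pool, and COL23A1, Itga4 and ITGB5 were lower. Among all components tested 14.6% were separated upward and 13.7% downward, 28.3% in all.

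Levels between genes were compared as CPM per kb of effective length, averaged over the 6 pools. FN1 stood first at 1344 CPM per kb, followed by COL1A1 at 209, and every other member was below 20. The next were the type VI chains COL6A2 (19.9 CPM per kb) and Col6a1 (17.3), then COL13A1 (15.5, annotated as a protein kinase), ITGAV (13.6), LAMB1 (13.3), ITGA6 (12.8), ITGB1 (12.6) and ITGA9 (11.6). From COL6A2 down to ITGA9, neighbours in this order had pool ranges that overlapped. Of the 46 genes, 37 averaged at least 1 CPM, and 9 were below it. ITGA3 was lowest at 0.396 CPM per kb.

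**Figure D2:**
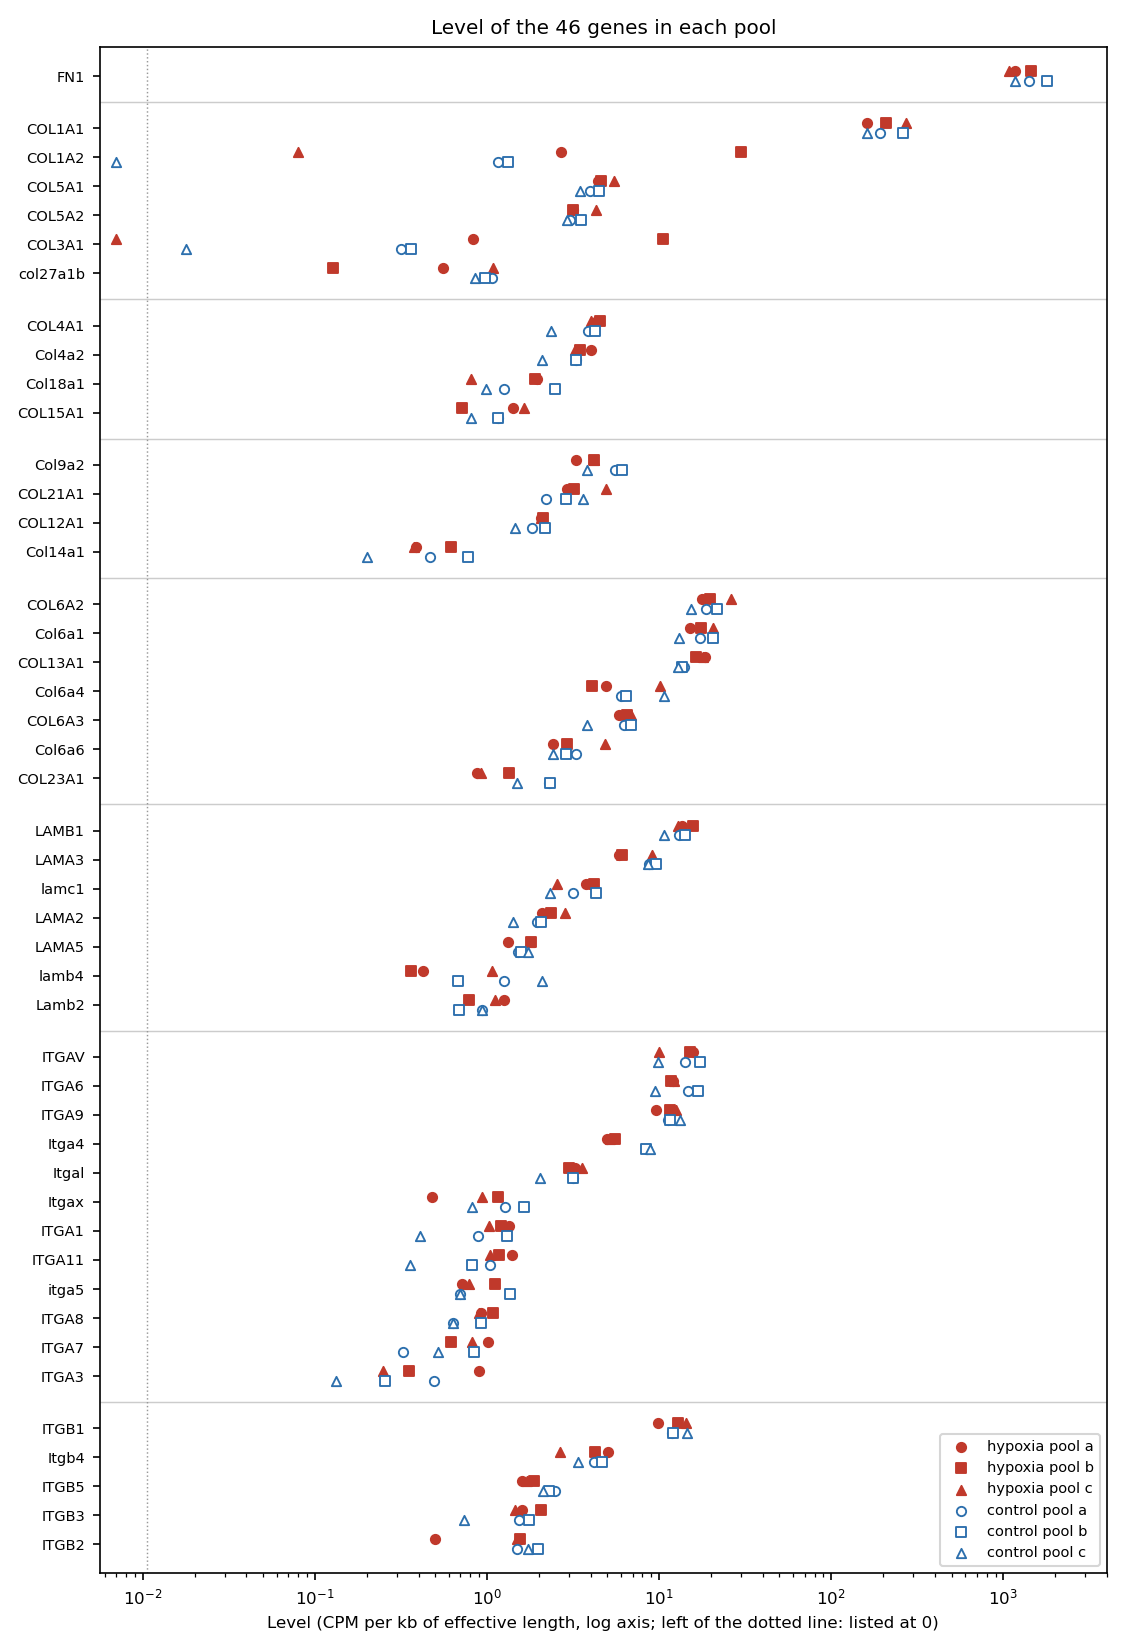
The level of each of the 46 genes in each pool, in CPM per kb of effective length on a log axis, with hypoxia pools (filled) drawn above control pools (open). FN1 and COL1A1 stand apart at the right. COL1A2 and COL3A1 spread most, with hypoxia pool b far to the right of the other pools and the letter c pools at or near 0.

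Itga4 codes for the integrin alpha 4 subunit, which in mammals pairs with beta 1 or beta 7 and binds fibronectin and the vascular adhesion molecule VCAM1, mostly on leukocytes. Its single component (comp19443_c3) had 15.7, 17.4 and 16.2 CPM in hypoxia pools a, b and c, against 26.6, 26.2 and 27.8 CPM in control pools a, b and c. The groups did not overlap, and the pools within each group lay close together. The mean was 16.4 ± 0.887 CPM in hypoxia pools and 26.9 ± 0.811 CPM in control pools (SD, n = 3 each). The gene fell by 0.71 on the log2 scale (SE 0.14, edgeR adjusted p = 0.0231). The call was lost when 1 of 4 pools was left out: adjusted p was 0.0808 without hypoxia pool a, 0.0866 without hypoxia pool b, 0.109 without control pool a and 0.0894 without control pool b. The fold change kept its sign in all 15 alternatives, from -0.76 to -0.66. In the authors' deposited table the p of this component is 0.175. Whether that p is adjusted over components was not checked, so it cannot be set directly against the edgeR values.

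Leukocyte and macrophage markers summed to 31.3 to 48.7 CPM in hypoxia pools and 35.6 to 45.8 CPM in control pools. The groups overlapped in this sum and none of the 7 markers tested passed; CD74 and MPEG1, the other 2 of the 9, were not among the names. The leukocyte beta subunit ITGB2 had 1.36, 4.25 and 4.06 CPM in hypoxia pools a, b and c, against 4.05, 5.38 and 4.69 CPM in control pools a, b and c. Its groups overlapped, and it did not pass (log2 fold change -0.54, SE 0.38, adjusted p = 0.447). Itgal, annotated in the table as integrin alpha M, a leukocyte alpha subunit, had 11.3, 10.5 and 12.4 CPM in hypoxia pools a, b and c, against 11.1, 11.1 and 7.12 CPM in control pools a, b and c, and did not pass (0.22, SE 0.21, adjusted p = 0.581).

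The most abundant integrin alpha subunits did not pass. ITGAV, which joins several beta subunits and binds RGD motifs in fibronectin and vitronectin, had 50.5, 48.5 and 32.4 CPM in hypoxia pools a, b and c, against 45.5, 55.5 and 31.8 CPM in control pools a, b and c. Both letter c pools were the lowest, and the log2 fold change was -0.02 (SE 0.25, adjusted p = 0.979). ITGA6, a laminin receptor subunit, had 42.9, 42.1 and 43.3 CPM in hypoxia pools a, b and c, against 52.4, 59.8 and 33.9 CPM in control pools a, b and c (-0.19, SE 0.21, adjusted p = 0.657). Its groups overlapped only through control pool c. Over the 15 alternatives the ITGA6 log2 fold change ran from -0.40 to -0.02, and the smallest adjusted p was 0.0865. ITGA9, a partner of beta 1, had 46.0, 54.9 and 60.1 CPM in hypoxia pools a, b and c, against 53.5, 55.1 and 63.5 CPM in control pools a, b and c (-0.10, SE 0.17, adjusted p = 0.789).

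Low integrin alpha subunits gave wider estimates. ITGA11, a collagen receptor subunit of fibroblasts in mammals, had 1.45, 1.21 and 1.09 CPM in hypoxia pools a, b and c, against 1.08, 0.847 and 0.373 CPM in control pools a, b and c. The groups were separated by a narrow margin, and the log2 fold change of 0.70 (SE 0.39) did not pass (adjusted p = 0.341). Across the 10 integrin alpha subunits tested, 4 estimates were positive and 6 negative, from -0.71 to 0.70.

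Among the beta subunits, ITGB1, the common partner of most alpha subunits, had 39.7, 51.7 and 57.5 CPM in hypoxia pools a, b and c, against 47.7, 48.7 and 58.7 CPM in control pools a, b and c. The groups overlapped, and the log2 fold change was -0.06 (SE 0.19, adjusted p = 0.889). A further component named ITGB1 (comp3965_c0) had 20.5 to 28.0 CPM in hypoxia pools and 10.8 to 22.1 CPM in control pools, and did not pass (0.36, adjusted p = 0.493). Itgb4, the laminin-binding partner of alpha 6 in epithelia, had 29.9, 25.2 and 15.8 CPM in hypoxia pools a, b and c, against 24.7, 27.6 and 20.1 CPM in control pools a, b and c (log2 fold change -0.03, adjusted p = 0.957). ITGB5, which pairs with alpha V and binds vitronectin, had 4.13, 4.86 and 4.42 CPM in hypoxia pools a, b and c, against 6.49, 5.99 and 5.47 CPM in control pools a, b and c. All 3 hypoxia pools lay below the control pools, yet the log2 fold change of -0.42 (SE 0.18) did not pass (adjusted p = 0.216).

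When every component with a member name was taken on its own, 75 could be tested. Where 4.56% of all components tested rose and 1.8% fell, 1 of these 75 rose beside the fall of Itga4. This was a short component named ITGA6 (comp665868_c0, 656 bases), with 24, 33 and 23 counts in hypoxia pools a, b and c, against 8, 3 and 7 counts in control pools a, b and c. The groups were separated (log2 fold change 2.07, SE 0.44, adjusted p = 0.0277). Its mean level was 0.771 CPM in hypoxia pools and 0.180 CPM in control pools, far below that of the main ITGA6 component, and whether both are 1 gene was not tested.

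FN1, the matrix and plasma glycoprotein bound by several of these integrins, had 8978, 11190 and 8295 CPM in hypoxia pools a, b and c, against 10851, 13883 and 9052 CPM in control pools a, b and c. The groups overlapped, and in each the letter b pool was highest and the letter c pool lowest. The log2 fold change was -0.25 (SE 0.21, adjusted p = 0.536). This 1 component held 0.863 to 1.13% of all counts in hypoxia pools and 0.851 to 1.35% in control pools. The other 3 components named FN1 were below 30 CPM in every pool, and their log2 fold changes of 0.17 to 0.61 did not pass.

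COL1A1, the alpha 1 chain of the main fibre collagen, had 455, 581 and 764 CPM in hypoxia pools a, b and c, against 540, 730 and 450 CPM in control pools a, b and c (comp19702_c0). The groups overlapped, and the estimate was close to 0 (log2 fold change 0.06, SE 0.25, adjusted p = 0.906). Its sign was set by the letter c pools: hypoxia pool c was the highest of the 6 and control pool c the lowest, and without both the log2 fold change was -0.30. COL5A1, which takes part in starting type I fibres, had 38.1, 39.4 and 47.0 CPM in hypoxia pools a, b and c, against 34.0, 38.3 and 29.7 CPM in control pools a, b and c (log2 fold change 0.29, SE 0.17, adjusted p = 0.366).

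COL1A2 and COL3A1, named for the alpha 2 chain of type I and the chain of type III collagen, looked unlike the other members. The name COL3A1 matched no T. vachellii symbol in RefSeq. COL1A2 (comp9385_c0) had 65, 800 and 2 counts in hypoxia pools a, b and c, against 29, 32 and 0 counts in control pools a, b and c. COL3A1 (comp17368_c1) had 48, 666 and 0 counts in hypoxia pools a, b and c, against 19, 21 and 1 counts in control pools a, b and c. In both genes hypoxia pool b was over 10 times any other pool, and the letter c pools were at or near 0.

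The fold changes of these 2 genes rested on hypoxia pool b and did not pass. COL1A2 had a log2 fold change of 3.72 (SE 1.49, adjusted p = 0.187), and COL3A1 one of 4.01 (SE 1.54, adjusted p = 0.168). Without hypoxia pool b the values were 0.72 (adjusted p = 0.828) and 0.81 (adjusted p = 0.806). With the letter as a replicate block both passed, at log2 fold changes of 3.03 (adjusted p = 0.0267) and 3.23 (adjusted p = 0.0352), and hypoxia pool b remained in that fit. Both also passed without hypoxia pool c, at 4.28 (adjusted p = 0.0442) and 4.57 (adjusted p = 0.0311), and without both letter c pools, at 3.73 (adjusted p = 0.0114) and 4.06 (adjusted p = 0.0108).

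The same shape ran through most components of type I and III collagen. Of the 18 components named COL1A1, COL1A2 or COL3A1, 16 had at least 5 times the CPM of any other pool in hypoxia pool b and at most 3 counts in each letter c pool. These were 4 of 5 for COL1A1, all 6 for COL1A2 and 6 of 7 for COL3A1. Summed over the 16, there were 322, 3831 and 4 counts in hypoxia pools a, b and c, against 162, 162 and 3 counts in control pools a, b and c. Hypoxia pool b held 67.5 to 94.9% of the CPM of each. The components outside the shape were the main COL1A1 component and a Col3a1 component of 362 bases (comp581050_c0) with 13, 15 and 13 counts in hypoxia pools a, b and c, against 8, 4 and 1 counts in control pools a, b and c. That shape was picked out after the values had been seen and was not tested.

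**Figure D3:**
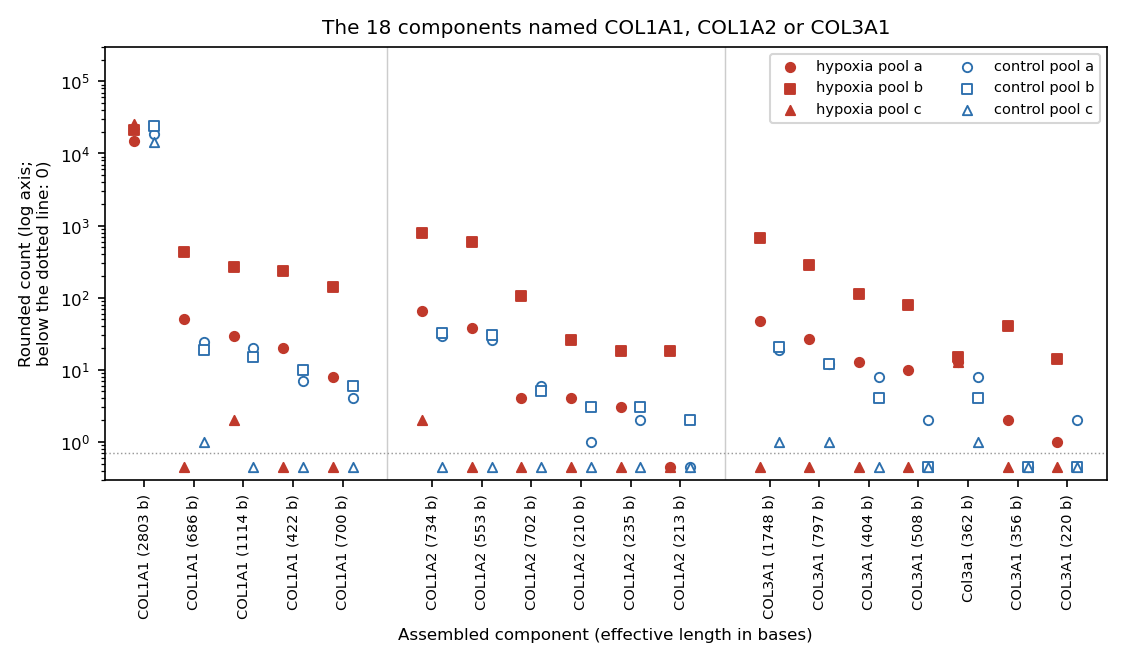
Rounded counts of the 18 components named COL1A1, COL1A2 or COL3A1 in each pool, on a log axis, with counts of 0 below the dotted line and hypoxia pools (filled) left of control pools (open). In 16 of the 18 hypoxia pool b (filled squares) is the highest by at least 5 times and both letter c pools (triangles) hold at most 3 counts; the main COL1A1 component, at the left, has 14478 to 25953 counts in every pool.

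Fibroblast and stellate cell markers did not follow this shape as a list. Their 12 names summed to 297, 325 and 374 CPM in hypoxia pools a, b and c, against 295, 315 and 434 CPM in control pools a, b and c. Of the 10 tested, HAND2 fell and 9 did not pass. LUM and VIM, the 2 not tested, did follow the shape, at 1.05 and 3.70 CPM in hypoxia pool b and at most 0.453 CPM in any other pool, LUM being at 0 in hypoxia pool c and in control pools b and c. The main components of DCN (126 to 264 CPM) and Sparc (93.1 to 148 CPM) did not, but smaller components of the same names had the excess in hypoxia pool b. A further DCN component had 57, 625 and 5 counts in hypoxia pools a, b and c, against 23, 18 and 0 counts in control pools a, b and c. The largest of 3 further SPARC components had 42, 648 and 4 counts in hypoxia pools a, b and c, against 25, 20 and 2 counts in control pools a, b and c, and the other two met the full shape. The components named COL5A1 or COL5A2 had no such excess in hypoxia pool b. Whether the counts of these components come from another tissue in that pool or from RNA of another source was not tested. The COL1A2 and COL3A1 values, and their rise in the fits named above, are therefore given as values of the components and not as levels in liver cells.

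Type IV collagen forms the network of basement membranes, and its chains moved alike between pools. COL4A1 had 29.7, 30.7 and 27.3 CPM in hypoxia pools a, b and c, against 26.3, 28.6 and 16.0 CPM in control pools a, b and c (log2 fold change 0.30, SE 0.22, adjusted p = 0.467). Col4a2 had 25.9, 22.6 and 21.1 CPM in hypoxia pools a, b and c, against 21.3, 21.2 and 13.5 CPM in control pools a, b and c (log2 fold change 0.31, SE 0.21, adjusted p = 0.422). In both genes control pool c was well below the other 5. Endothelial markers (9 of 12 names found) summed to 190, 186 and 180 CPM in hypoxia pools a, b and c, against 143, 153 and 119 CPM in control pools a, b and c, and control pool c was the lowest there too. FLT1, a VEGF receptor, rose and 6 other endothelial markers did not pass; PECAM1, TEK and EMCN were not among the names, and STAB2 was at 0 in control pool b. The part of endothelial cells in the type IV values was not tested. Col18a1, the multiplexin that yields endostatin, stayed between 0.559 and 1.72 CPM in the 6 pools (log2 fold change -0.02, adjusted p = 0.988).

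The laminin chains gave no call. LAMB1, the most abundant, had 127, 147 and 121 CPM in hypoxia pools a, b and c, against 121, 133 and 99.3 CPM in control pools a, b and c (log2 fold change 0.16, SE 0.18, adjusted p = 0.649). Its partner lamc1, the gamma 1 chain found in most laminins, had 18.6, 20.6 and 12.6 CPM in hypoxia pools a, b and c, against 15.6, 21.2 and 11.4 CPM in control pools a, b and c (0.11, SE 0.26, adjusted p = 0.856). Both letter c pools were the lowest for lamc1. LAMA2, the alpha chain best known from the basement membrane of muscle, had 10.1, 11.3 and 13.7 CPM in hypoxia pools a, b and c, against 9.35, 9.89 and 6.78 CPM in control pools a, b and c. Its groups were separated, with a log2 fold change of 0.43 (SE 0.20, adjusted p = 0.262).

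LAMA3, an alpha chain of epithelial laminins, depended on hypoxia pool c. It had 55.7, 58.4 and 87.1 CPM in hypoxia pools a, b and c, against 84.2, 92.0 and 83.2 CPM in control pools a, b and c. Hypoxia pools a and b lay below every control pool, while hypoxia pool c was among the controls (log2 fold change -0.37, SE 0.20, adjusted p = 0.336). Without both letter c pools it passed at -0.63 (adjusted p = 0.0129), in a fit where 14.9% of all components passed. Without hypoxia pool c alone it did not (-0.61, adjusted p = 0.0650). The chain lamb4 had 0.453, 0.386 and 1.15 CPM in hypoxia pools a, b and c, against 1.34, 0.726 and 2.24 CPM in control pools a, b and c, and its log2 fold change of -1.11 (SE 0.53) did not pass (adjusted p = 0.259). In each group the letter c pool was the highest for lamb4.

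Type VI collagen makes beaded filaments close to cells. COL6A2 had 73.5, 82.2 and 108 CPM in hypoxia pools a, b and c, against 78.1, 90.0 and 64.2 CPM in control pools a, b and c (log2 fold change 0.19, SE 0.21, adjusted p = 0.647). Col6a1 had 53.6, 62.6 and 73.6 CPM in hypoxia pools a, b and c, against 61.3, 72.9 and 46.6 CPM in control pools a, b and c (0.07, SE 0.21, adjusted p = 0.880). These chains shared the order of the pools with COL1A1: hypoxia pool c was the highest and control pool c the lowest. Col6a4 differed from them, with 10.7, 8.94 and 22.3 CPM in hypoxia pools a, b and c, against 13.1, 14.1 and 23.4 CPM in control pools a, b and c, so that both letter c pools were high (log2 fold change -0.27, adjusted p = 0.708).

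The genes named for transmembrane collagens were COL13A1 and COL23A1. COL13A1 had 65.5, 57.7 and 63.3 CPM in hypoxia pools a, b and c, against 49.4, 48.0 and 45.1 CPM in control pools a, b and c, with no overlap (log2 fold change 0.39, SE 0.15, adjusted p = 0.171). The table annotates this component as a cGMP-dependent protein kinase, so its name and its annotation disagree. COL23A1 had 1.30, 1.99 and 1.35 CPM in hypoxia pools a, b and c, against 3.38, 3.42 and 2.21 CPM in control pools a, b and c, again with no overlap. Its log2 fold change of -0.95 (SE 0.28) missed the threshold (adjusted p = 0.0831). It passed with the replicate block (-0.95, adjusted p = 0.0465), without control pool c (-1.14, adjusted p = 0.0453), without both letter c pools (-1.04, adjusted p = 0.0241) and in DESeq2 (-0.96, adjusted p = 0.0451). The table annotates this component as a collagen alpha chain of type I/II/III/V/XI, and the name COL23A1 matched no T. vachellii symbol in RefSeq. In the authors' deposited table COL23A1 has the smallest p of the 46 genes, 0.159, and no member is under 0.05, a level that 3.02% of 34744 components reach.

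FACIT collagens sit on the surface of fibres. Col9a2 had 3.35, 4.28 and 4.27 CPM in hypoxia pools a, b and c, against 5.62, 6.23 and 3.89 CPM in control pools a, b and c (log2 fold change -0.40, SE 0.23, adjusted p = 0.355). COL21A1 had 4.04, 4.44 and 6.83 CPM in hypoxia pools a, b and c, against 3.06, 3.99 and 5.01 CPM in control pools a, b and c (0.35, SE 0.27, adjusted p = 0.503). COL12A1 stayed between 5.59 and 5.74 CPM in hypoxia pools and between 3.95 and 5.90 CPM in control pools (0.19, adjusted p = 0.621). In all 3 genes the groups overlapped. The Col9a2 and COL21A1 components are annotated as collagen alpha chains of type I/II/III/V/XI, as the COL23A1 component is.

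Control pool c was low for many members. It was the lowest of the 6 pools in 21 of the 43 tested genes (48.8%), against 21.9% of all components tested. It lay below the mean of control pools a and b in 35 of the 43 (81.4%), against 51.2% of all components. The median log2 ratio of control pool c to that mean was -0.48 in collagens, -0.08 in laminin chains and -0.48 in integrins, against -0.02 over all components. Hypoxia pool c was the highest pool in 12 members, and 10 of these were collagens. The share of all components highest in that pool was not counted, so these counts have no background beside them. Exocrine pancreas markers (3 of 7 names found) summed to 26.5 CPM in control pool c, against 835 to 4191 CPM in the other pools. The hepatocyte sum (49734 CPM) and the fibroblast and stellate cell sum (434 CPM) were highest in control pool c. For fibroblasts and stellate cells this rested on DCN. Without DCN the sums were 171, 169 and 179 CPM in hypoxia pools a, b and c, against 153, 160 and 170 CPM in control pools a, b and c. The endothelial sum (119 CPM) and the thrombocyte sum (24.7 CPM) were lowest in control pool c. Whether the tissue make-up of this pool bears on the member values was not tested.

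The difference between groups varied with the letter. Each letter sets a single hypoxia pool against a single control pool, and the variation between letters was not tested. With 0.1 CPM added, the median log2 difference of a hypoxia pool from the control pool of the same letter was 0.11 for a, -0.10 for b and 0.60 for c in 20 collagens, with 11, 8 and 16 of them positive. In 7 laminin chains it was 0.07, 0.15 and 0.15, and in 15 integrins 0.03, -0.13 and 0.14. Over all components tested the medians were -0.01, 0.01 and 0.01, with 49.1, 51.0 and 50.8% positive, against 55, 40 and 80% of the collagens. Without both letter c pools the median log2 fold change of all tested members was -0.05, and the positive median of 0.11 given above was not seen.

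**Figure D4:**
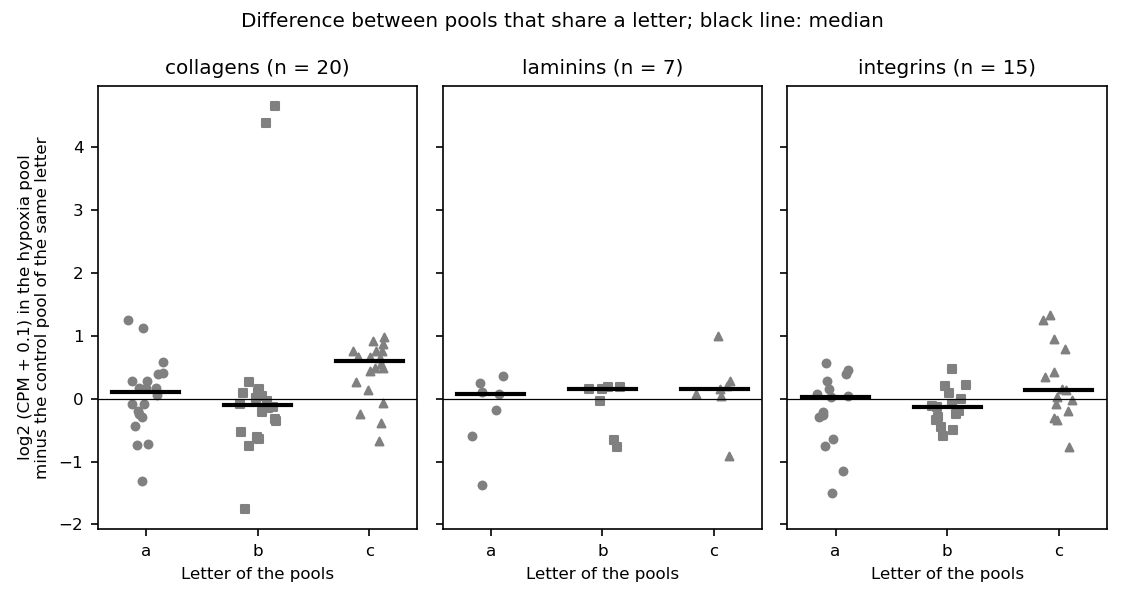
The log2 difference of each tested collagen, laminin chain and integrin between the hypoxia pool and the control pool of the same letter, with 0.1 CPM added and a black line at the median. For collagens the median lies at 0.11 and -0.10 in letters a and b and at 0.60 in letter c, and the 2 highest points of letter b are COL1A2 and COL3A1.

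In the fit with the letter as a replicate block, 2 members rose (COL1A2 and COL3A1) and 2 fell (Itga4 and COL23A1). These were 9.30% of the 43 tested, where 9.81% of all components passed. Without both letter c pools COL1A2 and COL3A1 rose and Itga4, COL23A1 and LAMA3 fell, which is 11.6% of the members, where 14.9% of all components passed.

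Among the enzymes and chaperones that modify, fold, export and crosslink collagen, 27 names were found and 26 tested. Of these 4 rose (15.4%, against 4.56% of all components) and none fell, and the median log2 fold change was 0.10, against 0.00 over all components. The difference from the collagens or from the other components was not tested. P4HA1, a catalytic subunit of collagen prolyl 4-hydroxylase, had 16.4, 16.2 and 20.2 CPM in hypoxia pools a, b and c, against 1.28, 1.51 and 0.933 CPM in control pools a, b and c. The groups were far apart (log2 fold change 3.82, SE 0.23, adjusted p = 7.29e-05).

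The other 3 genes that rose carry names of folding, export and crosslinking proteins. FKBP10, a peptidyl-prolyl isomerase that helps collagen fold, had 15.6, 12.4 and 12.0 CPM in hypoxia pools a, b and c, against 3.67, 3.81 and 5.75 CPM in control pools a, b and c (1.59, SE 0.23, adjusted p = 0.00522). MIA3, named for a protein that loads collagen into export carriers, had 65.8, 55.0 and 57.1 CPM in hypoxia pools a, b and c, against 33.4, 35.0 and 41.9 CPM in control pools a, b and c (0.69, SE 0.17, adjusted p = 0.0440). The crosslinking oxidase gene loxl2a had 26.4, 22.7 and 20.3 CPM in hypoxia pools a, b and c, against 5.53, 6.93 and 4.94 CPM in control pools a, b and c (1.99, SE 0.19, adjusted p = 0.00087). In these 3 genes the groups did not overlap. The table annotates the MIA3 component as a CAP-Gly domain-containing linker protein, so its name and its annotation disagree, and without it 3 genes of the list rose. P4HA1, FKBP10 and loxl2a passed in all 14 alternatives. MIA3 lost its call with no filter (adjusted p = 0.0678) and without hypoxia pool a (0.144), b (0.120) or c (0.0565) or control pool a (0.216) or b (0.181).

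Other genes of the list did not pass. P4HA2, a further catalytic subunit, had 28.6, 28.8 and 32.5 CPM in hypoxia pools a, b and c, against 27.0, 28.4 and 39.8 CPM in control pools a, b and c (log2 fold change -0.08, adjusted p = 0.842). PLOD2, a lysyl hydroxylase that the table annotates as the PLOD1 enzyme, had 6.49, 5.08 and 5.74 CPM in hypoxia pools a, b and c, against 4.11, 4.27 and 3.26 CPM in control pools a, b and c, and its log2 fold change of 0.57 did not pass although the groups were separated (adjusted p = 0.135). The collagen chaperone Serpinh1 stayed between 3.29 and 3.70 CPM in hypoxia pools and 2.42 and 4.42 CPM in control pools (0.03, adjusted p = 0.953). PLOD1, another lysyl hydroxylase, did not pass (0.71, adjusted p = 0.122). It rose with the replicate block (0.70, adjusted p = 0.0232) and without both letter c pools (0.65, adjusted p = 0.0132). In those fits 9.81% and 14.9% of all components passed. LOX was not among the names.

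Of 34 other matrix genes found, including basement membrane partners, matrix proteases and their inhibitors, 32 were tested and 2 rose (6.25%, near the 4.56% of all components), with a median log2 fold change of 0.06. Ctgf, a secreted matrix-associated growth factor, had 2.32, 2.12 and 2.41 CPM in hypoxia pools a, b and c, against 0.553, 0.484 and 0.342 CPM in control pools a, b and c (log2 fold change 2.30, SE 0.29, adjusted p = 0.0029), and passed in all 14 alternatives. The inhibitor gene timp3 had 13.3, 10.7 and 6.24 CPM in hypoxia pools a, b and c, against 4.60, 5.14 and 4.10 CPM in control pools a, b and c (1.13, SE 0.27, adjusted p = 0.0441). Its call was lost in limma-voom (adjusted p = 0.0700), with no filter (0.0604) and without hypoxia pool a (0.140) or b (0.141) or control pool a (0.167), b (0.127) or c (0.0923).

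The protease genes MMP9 and MMP13 did not pass, at log2 fold changes of -1.29 (adjusted p = 0.0829) and -1.21 (adjusted p = 0.152). With the replicate block MMP9 (-1.33, adjusted p = 0.0178), MMP13 (-1.22, adjusted p = 0.0188) and the netrin Ntn4 (-1.02, adjusted p = 0.0454) fell, and the matrix list then had 2 genes up and 3 down. In that fit 9.81% of all components passed. MMP9 (-1.30, adjusted p = 0.00724) and MMP13 (-1.22, adjusted p = 0.0389) also fell in DESeq2, where 9.66% passed. Ntn4 did not pass in the main test (-0.96, adjusted p = 0.119). It also fell without both letter c pools (-1.26, adjusted p = 0.0196) and without hypoxia pool c (-1.33, adjusted p = 0.0368). In those 2 fits 14.9% and 7.03% of all components passed.

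In the adhesion complex that links integrins to actin, 26 of 27 genes found were tested, 1 rose (3.85%, against 4.56% of all components) and none fell, with a median log2 fold change of 0.23. LIMS1, named for an adaptor that binds integrin-linked kinase but annotated in the table as paxillin, had 14.3, 12.6 and 13.8 CPM in hypoxia pools a, b and c, against 8.68, 7.56 and 8.64 CPM in control pools a, b and c. The groups did not overlap (log2 fold change 0.71, SE 0.16, adjusted p = 0.0321). The call was lost without hypoxia pool a (adjusted p = 0.106), b (0.0954) or c (0.0528) or control pool a (0.138) or b (0.143). ITGB1BP1, a cytoplasmic partner of beta 1, had 0.664, 0.497 and 0.294 CPM in hypoxia pools a, b and c, against 0.844, 1.27 and 1.52 CPM in control pools a, b and c (log2 fold change -1.32, SE 0.40, adjusted p = 0.0885).

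**Figure D5:**
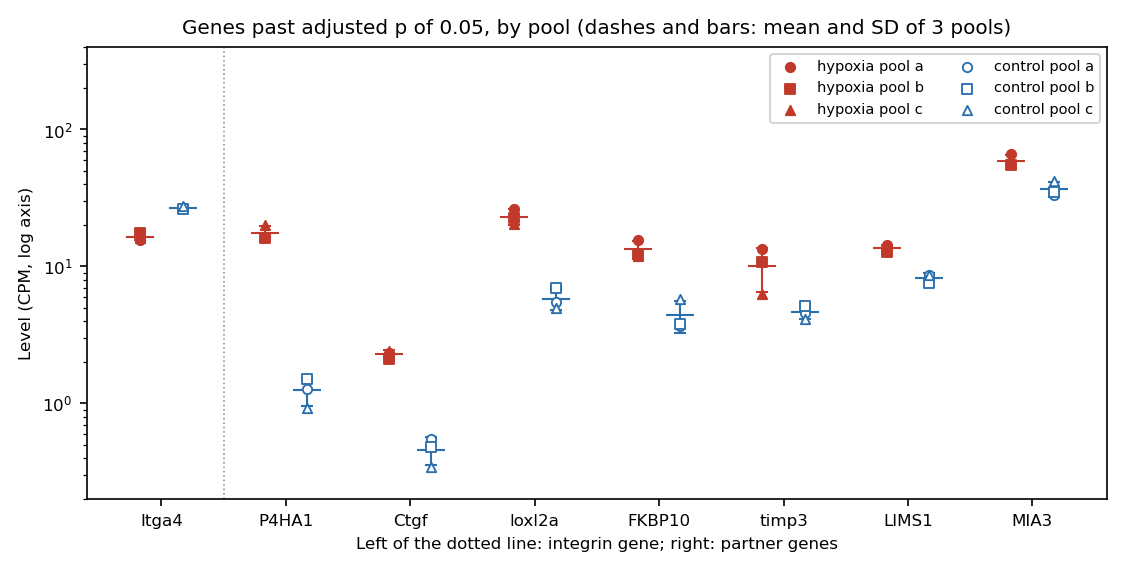
The level in each pool (CPM, log axis) of the genes with an adjusted p under 0.05, with hypoxia pools (filled) left of control pools (open) and dashes and bars for the mean and SD of 3 pools. Itga4, left of the dotted line, is lower in the 3 hypoxia pools, and the 7 partner genes to its right are higher in all 3.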

How the data were processed

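Reads were trimmed and assembled with Trinity by the authors, per the labels' protocols, and RSEM 1.2.3 and DESeq appear in the submitters' processing notes. The deposited mRNA table holds expected counts (estimated counts, unscaled, with fractions) for 34744 assembled components, each component's effective length (another unit, in bases) and a p-value from the authors. Whether the authors' p-value is adjusted over components was not checked. Strand and build are not given in the sources used here.

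Expected counts were rounded. Low counts were filtered with filterByExpr and libraries scaled with TMM, and groups were compared in edgeR 4.0.16 (quasi-likelihood test, two-sided, Benjamini-Hochberg over 25415 components; R 4.3.3). SE is the size of the log2 fold change over the root of the F statistic. CPM uses TMM-scaled totals. Alternatives used DESeq2 1.42.0, limma-voom 3.58.1, other scaling and filters, left-out pools, a replicate block, and summed or separate components. Scripts were tested on simulated data. Figures were made with Python 3.11.15, pandas 2.3.3 and matplotlib 3.10.9.

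Genes and lists were chosen with earlier results of these data known. Those given in full are genes past the threshold, the 3 highest per kb and 2 smallest adjusted p of each class, and FN1, ITGB1, COL1A1, COL1A2, COL4A1, Col4a2 and lamc1; from lists, genes past the threshold, the 2 smallest adjusted p, and P4HA1, P4HA2, PLOD2, LOX and SERPINH1. Others were named after their values were seen. P-values measure the spread between pools of 5 livers.

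Letters were taken to pair the pools only in the replicate block and in the same-letter differences. The main test compared the groups without pairing. Deviations from group means correlated between the same letters at 0.15 for a, 0.19 for b and 0.31 for c over 25415 components, which are not independent replicates, and between different letters at -0.29 to 0.18. The value of 0.18 was for hypoxia pool a with control pool b, above the 0.15 for letter a, so this check did not bear out the pairing of letter a. Deviations within a group cancel by construction, so the different-letter values are not independent of the same-letter values. Both groups came from the same aquaria, per the labels, but whether a letter stands for an aquarium is not stated there. Of the 46 names, 40 matched a symbol of T. vachellii in RefSeq (HZAU_Pvac_v1), used for names only. The match was of symbol text, so a gene listed under another symbol counts as unmatched. Small RNA was not used here.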

Additional observations from a re-analysis of the deposited data

How the results depend on the processing

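No gene reported as higher or lower changed sign under an alternative. Counts of members called (0 higher and 1 lower as reported) became 0 and 2 in DESeq2, 2 and 2 with the replicate block, 2 and 3 without both letter c pools, and 1 and 1 with every component taken on its own; leaving out 1 pool at a time gave 0 to 2 higher and 0 to 2 lower. The collagen processing list (4 and 0) gave 3 to 4 higher and 0 lower with 1 pool left out. PLOD1 also rose with the replicate block and without both letter c pools, and MIA3 lost its call with no filter. The matrix list (2 and 0) had 2 lower in DESeq2, 3 lower with the replicate block and 1 lower without both letter c pools, 1 higher in limma-voom and 1 higher with no filter; leaving out 1 pool gave 1 to 2 higher and 0 to 1 lower. The adhesion list (1 and 0) had 4 higher and 1 lower without both letter c pools, and 0 to 2 higher and 0 lower with 1 pool left out. The share of all components that passed moved as well, from 6.36% as reported. It was 9.66% in DESeq2, 9.81% with the replicate block and 14.9% without both letter c pools. It was 5.34% in limma-voom, 4.03% with no filter and 1.43 to 7.03% with 1 pool left out. The replicate block changed no other call among the genes named. The cause of these changes was not tested. The alternative without scaling beyond totals was chosen after seeing the data. Over all scalings tried the median of all components moved by under 0.1. Estimates near 0, such as those of COL1A1, Col6a1, ITGB1, ITGAV, Itgb4 and lamc1, changed sign when 1 pool was left out, so no direction can be given for them. In these libraries 3 counts are 0.0828 to 0.0933 CPM, which limits Col14a1, ITGA3, ITGA7 and the letter c pools of COL1A2 and COL3A1.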

Other observations

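Components with the shape of most COL1A1, COL1A2 and COL3A1 components were also counted across the whole table, as at least 15 counts in hypoxia pool b, at least 5 times the CPM of any other pool and at most 3 counts in each letter c pool. There were 94, of which 75 carried 51 distinct names, 24 of them components of ribosomal proteins and 16 of the collagens above, 1 of these COL6A2. Summed, they had 666, 8180 and 49 counts in hypoxia pools a, b and c, against 393, 363 and 42 counts in control pools a, b and c. Their median effective length was 332.5 bases, against 1213 bases for all named components. Only 8 passed the filter on low counts, and none of these passed in the main edgeR test. The COL1A2 and COL3A1 components among them passed in the alternatives given above.

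Among them, beside the ribosomal proteins, were genes as general as HSP90AB1 and MT-CO2, and also genes of fat cells and connective tissue. Of the components named FABP4, an adipocyte protein, comp254393_c0 had the shape. Another, comp157502_c0, did not, with 22, 30 and 58 counts in hypoxia pools a, b and c, against 37, 28 and 58 counts in control pools a, b and c. ADIPOQ, which codes for the fat-cell hormone adiponectin, had 2, 82 and 0 counts in hypoxia pools a, b and c, against 1, 1 and 0 counts in control pools a, b and c. MGP, a matrix protein that binds calcium, had 21, 239 and 2 counts in hypoxia pools a, b and c, against 9, 6 and 0 counts in control pools a, b and c. LUM, a small proteoglycan of collagen fibres, had 1, 38 and 0 counts in hypoxia pools a, b and c, against 2, 0 and 0 counts in control pools a, b and c. Of the 51 names, 43 matched a symbol of T. vachellii in RefSeq. The names without a match were ADIPOQ, ANXA2, COL3A1, MT-CO2, MT-ND2, MT-ND5, MYL12A and TMSB10. Names were compared as text, so a gene listed under another symbol counts as unmatched. A name without a match is therefore not evidence that the species lacks the gene. These components were chosen after their values were seen, and whether they come from liver, from another tissue in that pool or from RNA of another source was not tested.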
